A study of Mus musculus with 4 samples.

Results

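The genes described here are 48 interferon receptor, signalling and response genes, taken by symbol from the 56832 genes listed for each library of cultured mouse microglia. They were chosen by known function, with earlier results of these data known. They fall into an induced tier of 30 antiviral genes and a signalling tier of 14 receptor, kinase, STAT and IRF genes. Another 4 are sensors and adaptors that belong to neither. All 48 were listed in the files. RNA was sequenced from 4 libraries, numbered as replicates 1 to 4, of C57BL/6 microglia from primary glial culture that were detached with trypsin and sorted by flow cytometry. The wider study set such cells against cultured blood stem and progenitor cells, alone or grown with glia, which were not analysed here. The microglia form 1 group with no treatment given, so every result is a level, a comparison of tiers within the libraries, or a difference between libraries. No age, separate culture or animal is given for any library, so the spread between libraries may be technical.

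Interferons signal through paired receptor chains bound to Janus kinases. Type I interferons act through IFNAR1 and IFNAR2 with TYK2 and JAK1, and interferon gamma acts through IFNGR1 and IFNGR2 with JAK1 and JAK2. The kinases phosphorylate STAT proteins. STAT2 and IRF9 form part of the complex that binds the interferon-stimulated response element (ISRE), which lies before most antiviral genes. Microglia, the resident macrophages of the brain, carry both receptor types and respond to both. The signalling genes are made without stimulation, whereas most induced genes rise after it, although Stat2, Irf1, Irf7 and Irf9 belong to both sets.

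Library sizes were 23212183 to 28469813 gene counts. The 7 microglia and macrophage markers were all at 275 TPM or more (counts per exon length, scaled to the same total in each library). Of the other marker lists, astrocyte genes were highest: Clu was at 209 TPM ± 44.6 (SD, n = 4), and the 7 genes together took 0.0279% of the counts in replicate 1 and 0.0383% to 0.0475% in the other libraries. The highest gene of the oligodendrocyte lineage was Cspg4 (8.73 TPM), of plasmacytoid dendritic cells Cox6a2 (2.33), of monocytes Ccr2 (0.989), of endothelium Cdh5 (0.856) and of lymphocytes Cd79a (0.173), while the 4 neutrophil genes had 0 counts. The defining markers Mog, Ly6c2, Plac8 and Ly6d were at 0 in all libraries. The libraries are labelled female, and Xist was at 253 to 341 CPM (counts scaled to the same library total, without gene length), but the Y-linked genes Ddx3y (30.03 to 41.5 CPM) and Kdm5d (19.6 to 21.2 CPM) were also present in every library. The early-response gene Egr1, named after its values were seen, was at 231 CPM in replicate 1 and 39.9, 72.4 and 44.2 CPM in replicates 2, 3 and 4.

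Promoters were compared between the induced and signalling tiers. The ISRE letters, GAAA repeated after any 2 bases, were searched on both strands in the RefSeq promoter table (GRCm38.p6, 250 bases before to 50 bases after each gene start). They were found in 16 of 25 induced genes with a promoter, which is 64.0%, and in 2 of 14 signalling genes, which is 14.3%. Of all 27025 genes in the table, 3.99% held them. These are descriptions of lists chosen for their function, and a match is not a shown binding site. The stretches below show how the matches are spaced in some induced genes with more than 1 match, and the 2 signalling promoters with a match. Induced genes with 1 match, such as Rsad2, Gbp2 and Igtp, are not printed. Matches to the ISRE letters are in capitals, and all sequences read 5′ to 3′ along the gene and end before its start.
Isg15: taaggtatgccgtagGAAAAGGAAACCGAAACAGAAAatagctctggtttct
Bst2: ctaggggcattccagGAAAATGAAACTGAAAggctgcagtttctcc
Oas1a: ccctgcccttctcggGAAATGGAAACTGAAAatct
Irgm1: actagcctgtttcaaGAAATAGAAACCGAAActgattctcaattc
Ifit1: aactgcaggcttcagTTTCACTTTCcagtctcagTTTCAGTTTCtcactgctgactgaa
Ifit3: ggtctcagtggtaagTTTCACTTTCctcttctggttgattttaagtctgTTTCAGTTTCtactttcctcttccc
Ifit3b: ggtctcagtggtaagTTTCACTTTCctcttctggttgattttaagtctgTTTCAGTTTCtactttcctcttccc
Stat2: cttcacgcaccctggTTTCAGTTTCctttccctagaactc
Irf2: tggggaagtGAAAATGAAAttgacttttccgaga

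In GRCm38.p6 the Isg15 stretch is chr4:156200860-156200911 on the minus strand, and those of Bst2, Oas1a and Irgm1, also on the minus strand, are chr8:71537572-71537617, chr5:120907526-120907560 and chr11:48871421-48871465. The plus-strand stretches are chr19:34640770-34640828 for Ifit1, chr19:34583358-34583431 for Ifit3, chr19:34607754-34607827 for Ifit3b, chr10:128270261-128270300 for Stat2 and chr8:46739495-46739528 for Irf2. Isg15, which encodes a ubiquitin-like protein attached to other proteins after interferon, had 3 overlapping matches that began 78, 72 and 66 bases before its start. Bst2, Oas1a and Irgm1 each had 2 overlapping matches. Ifit1, Ifit3 and Ifit3b had 2 separate matches each, on the opposite strand, and the 74 bases printed for Ifit3 and Ifit3b are identical.

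Of the 16 induced genes with the letters, 9 had more than 1 match. In 14 the letters lay before the start, beginning 14 to 188 bases away, and in Ifitm3 and Eif2ak2 they lay after it. Both signalling matches were near the far end of the window, 222 bases before the start of Stat2 and 241 bases before that of Irf2. Among the sensors the letters were in Ifih1 alone, after its start. Promoters of Oas2, Mx1, Mx2, Usp18 and Parp14 were not used here. The letters TTCNNNGAA of the gamma-activated site, which read the same on both strands, were in 44.0% of induced and 28.6% of signalling genes, against 9.55% of all genes; they overlapped an ISRE match in 2 members.

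**Figure D1:**
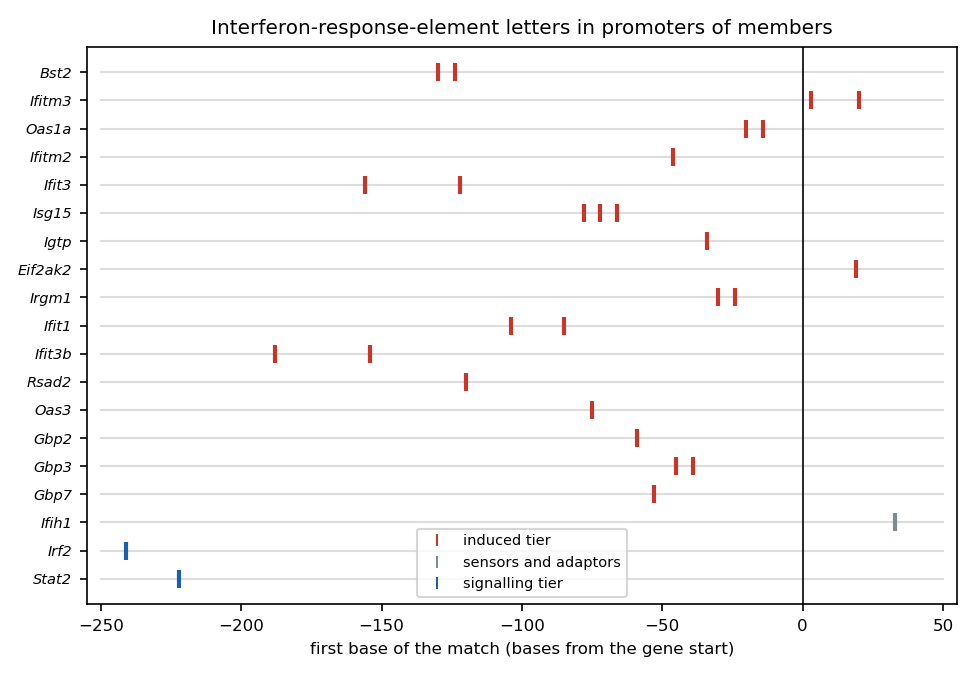
Position of each ISRE match (tick marks, both strands) in bases from the gene start, for the members that hold 1 or more, ordered by mean TPM within each tier. Most ticks of the induced genes (red) lie between 14 and 160 bases before the start, while those of Irf2 and Stat2 (blue) begin at 241 and 222.

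None of the 13 interferon genes examined was detected. They were Ifnb1, Ifng, 5 Ifna genes, Ifnab, Ifne, Ifnk, Ifnz, Ifnl2 and Ifnl3, and had 0 counts in all 4 libraries. A count of 0 allows up to 3 counts in a library, or 0.105 to 0.129 CPM, for counting error only. For Ifng, 25.9% of the exon bases lie under another gene, so its count is uncertain. Sequence shared with other genes was not examined for these 13 genes, so its part in their 0 counts is not known. Of the 48 members, 46 reached 1 CPM in all 4 libraries, against 51.4% of protein-coding genes and 20.6% of all listed genes. The exceptions were Ifitm6, with 38 counts in total, and Gbp7, which was at 0.905 CPM in replicate 3. Members were chosen with earlier results of these data known, so their share is not an independent result. Among 40 other induced genes, 32 reached 1 CPM in all 4 libraries.

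All 4 receptor chains were abundant. Ifngr1, the ligand-binding chain of the interferon gamma receptor, was highest of the signalling tier, with 552, 527, 564 and 565 TPM in replicates 1 to 4. Its partner Ifngr2 was at 196, 187, 196 and 210 TPM, so that Ifngr1 exceeded it by 2.80-fold ± 0.0830 (TPM ratio, SD, n = 4). The longest Ifngr1 transcript has 2112 bases against 2847 in its merged exons, so the ratio would be larger on transcript length. Of the type I chains, Ifnar2 was at 183, 202, 191 and 192 TPM and Ifnar1 at 149, 161, 159 and 157 TPM. In TPM Ifnar1 was the lower in every library, at 0.816 times Ifnar2 ± 0.0153. This order depends on gene length. Merged exons, used here, are 5940 bases for Ifnar1 and 3329 for Ifnar2. The longest transcripts are 3909 and 3047 bases, and on these Ifnar1 would be the higher. On CPM, without gene length, Ifnar1 was the higher in every library, with means of 277 against 190. The gamma receptor chain Ifngr1 stood 3.53-fold ± 0.177 above Ifnar1. For Ifnar2, 9.46% of the exon bases lie under another gene, so its level is uncertain.

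Among the kinases, Jak1, which serves both receptor types, was at 143 TPM ± 8.27. Tyk2, which binds IFNAR1, was at 49.1 TPM ± 2.43. Jak2, the partner of IFNGR2, was lowest, at 34.4, 26.0, 24.2 and 27.4 TPM in replicates 1 to 4. Jak1 thus exceeded Jak2 by 5.17-fold ± 0.489, although both act at the gamma receptor. For Jak1 the merged exons have 7227 bases and the longest transcript 4906, while for Jak2 both have 5030. The ratio would therefore be larger on transcript length. Jak2 was also the most uneven member of the signalling tier, with replicate 1 above the other 3 libraries.

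The transcription factors spanned a wide range. Irf5, a macrophage IRF that acts downstream of Toll-like receptors, was at 418, 395, 414 and 391 TPM. Irf7, which amplifies type I interferon production and is itself induced, was lowest of the signalling tier at 25.9, 26.3, 27.4 and 28.0 TPM. The TPM ratio of Irf5 to Irf7 was 15.1 ± 0.891, and the 4 libraries of each were close together. The others lay between 28.8 and 53.6 TPM: Irf3, which is made constitutively and activated by nucleic acid sensors, at 53.6 ± 3.44, Irf9 at 48.9 ± 1.73, Irf2 at 41.9 ± 1.46, Irf1 at 38.2 ± 2.26 and Stat2 at 28.8 ± 1.501. The signalling tier therefore had a gap, with 6 genes at 143 TPM or more (the 4 receptor chains, Irf5 and Jak1) and 8 at 53.6 TPM or less.

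Of the sensors and adaptors, Mavs, the mitochondrial adaptor of RNA sensing, was at 65.4 TPM ± 2.90, and Trim25, a ubiquitin ligase of the same pathway, at 61.4 ± 1.23. Both were above the other 2 members of this group. The DNA sensor Cgas was at 17.4 TPM ± 2.33 and the RNA sensor Ifih1 at 9.76 ± 1.17. Ifih1 is inducible by interferon, and it was the lowest gene outside the induced tier.

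The induced tier ran from 0.773 to 2522 TPM, against 26.9 to 552 TPM for the signalling tier. Of the 30 induced genes, 2 were at 100 TPM or more, 16 at 10 to 100 TPM and 12 under 10 TPM. Bst2 encodes tetherin, a membrane protein that holds budding virions to the cell. It was at 2375, 2752, 2511 and 2451 TPM in replicates 1 to 4, higher than 99.7% of the 11099 protein-coding genes that reached 1 CPM in every library. It alone made up 43.0% ± 1.95 (SD, n = 4) of the counts of the induced tier. The next gene, Ifitm3, was at 201 TPM, and the TPM ratio of Bst2 to Ifitm3 was 12.6 ± 0.8287.

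**Figure D2:**
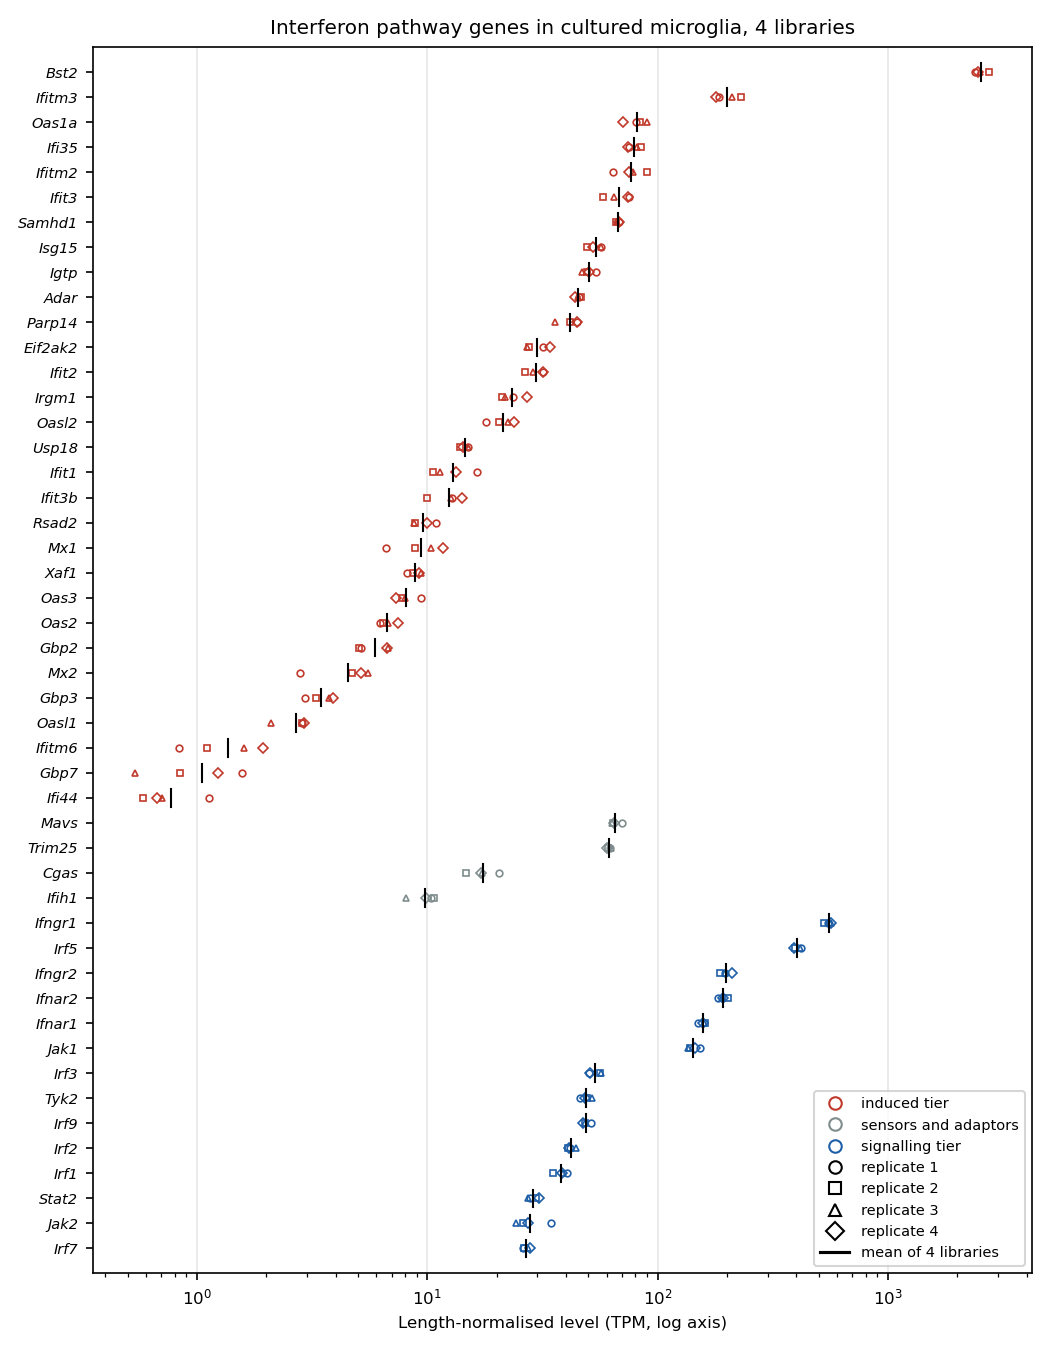
TPM of each member (log axis) in each of the 4 libraries (symbols) with the mean (vertical bar), by tier and mean level. Bst2 stands at 2522 TPM, and 17 of the 30 induced genes (red) lie below the lowest signalling gene (blue), Irf7 at 26.9 TPM.

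Interferon-induced transmembrane proteins block virus entry at membranes. Ifitm3, which acts in endosomes, was at 184, 230, 211 and 180 TPM, and Ifitm2 at 64.2, 89.9, 78.4 and 75.0 TPM. Replicate 2 was highest for both. The level of Ifitm2 is uncertain, as 40.9% of its exon bases lie under another gene. Ifitm6 was at 1.37 TPM ± 0.495, near the limit of detection.

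The IFIT proteins bind viral RNA. Ifit3 was at 74.8, 57.7, 64.7 and 74.1 TPM, Ifit2 at 31.7, 26.6, 28.8 and 31.7 TPM, and Ifit1 at 16.4, 10.6, 11.3 and 13.3 TPM. All were lowest in replicate 2, and so was Ifit3b, a close copy of Ifit3, at 12.4 TPM ± 1.74. The ratio of Ifit3 to Ifit3b was 5.51 ± 0.368. It is uncertain, because 27.4% of the 100-base stretches of the longest Ifit3b transcript also occur in other genes, mostly in Ifit3. For Ifit3 the share is 31.7%, mostly in Ifit3b.

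The OAS genes make the enzymes that sense double-stranded RNA and activate RNase L, or are related to them. Oas1a was at 81.3 TPM ± 7.93, followed by Oasl2 at 21.2 ± 2.52, Oas3 at 8.12 ± 0.878, Oas2 at 6.71 ± 0.564 and Oasl1 at 2.68 ± 0.388. For Oas1a 40.9% of the 100-base stretches are shared with other genes, mostly Oas1g.

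Of the interferon-induced GTPases, the immunity-related genes Igtp, at 50.2 TPM ± 2.72, and Irgm1, at 23.3 ± 2.68, were highest. The guanylate-binding genes, which are strongly induced by interferon gamma, were low: Gbp2 was at 5.91 TPM ± 0.929, Gbp3 at 3.46 ± 0.435 and Gbp7 at 1.05 ± 0.452. Mx1, whose product blocks influenza virus in mice with an intact allele and which is defective in C57BL/6, was at 6.63, 8.87, 10.4 and 11.7 TPM. Mx2 was at 2.79, 4.71, 5.51 and 5.16 TPM. Replicate 1 was lowest for both Mx genes.

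Isg15 was at 56.8, 49.5, 56.9 and 52.3 TPM. Usp18, the protease that removes ISG15 and also restrains IFNAR signalling, was at 13.8 to 15.02 TPM. The libraries of each lay close together. Among the enzymes that act on RNA and nucleotides, Samhd1, a dNTP hydrolase, was at 67.1 TPM ± 0.938 and the RNA-editing enzyme gene Adar at 45.1 ± 1.12. Parp14, an ADP-ribosyltransferase, was at 41.6 ± 4.14, the RNA-activated kinase gene Eif2ak2 at 30.04 ± 3.33 and Rsad2, which encodes viperin, at 9.61 ± 1.03. Of the remaining members Ifi35 was at 78.8 ± 5.22, the apoptosis-linked Xaf1 at 8.86 ± 0.577 and Ifi44, lowest of all, at 0.773 ± 0.245 TPM.

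The tiers were compared by their medians in each library. The induced tier had a median of 17.2, 17.2, 18.3 and 19.1 TPM in replicates 1 to 4, against 51.0, 52.9, 54.5 and 49.7 TPM for the signalling tier. The 2 sets of library medians did not overlap. On the log2(TPM + 1) scale the induced tier was lower in all 4 libraries, with a mean difference of -1.51 ± 0.0913 (SD, n = 4) and a range of -1.59 to -1.38. No p-value is given, because the genes were chosen with results known. The direction was the same under every alternative tried. The size depended on the make-up of the signalling tier: with the inducible genes Stat2, Irf1, Irf7 and Irf9 left out it was -3.01; these 4 were at 26.9 to 48.9 TPM, all below the median of the signalling tier. On CPM, without gene length, it was -2.70.

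Set beside the 11099 protein-coding genes, whose median was 22.2 TPM, the median induced gene was higher than 43.7% of them and the median signalling gene higher than 72.7%. Individual genes crossed the tiers. Bst2, Ifitm3, Oas1a, Ifi35, Ifitm2, Ifit3, Samhd1 and Isg15, the 8 highest induced genes, were above the signalling median, and no signalling gene was below the induced median. Induced genes with ISRE letters in their promoter had a median of 26.7 TPM (n = 16), and those with a promoter and no match had 21.2 TPM (n = 9), with wide overlap.

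**Figure D3:**
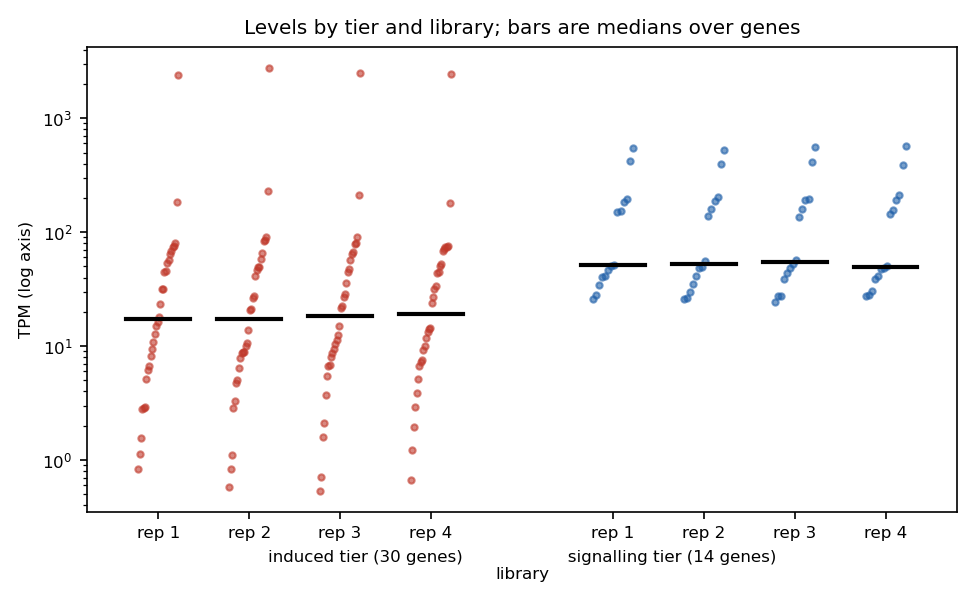
TPM (log axis) of the induced genes (30, left) and the signalling genes (14, right) in each library, with 1 point per gene and a bar at the median. The bars lie at 17.2 to 19.1 TPM for the induced tier and at 49.7 to 54.5 TPM for the signalling tier.

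Other genes of the pathway were taken from lists of known function. Of 90 such genes in the files, 63 reached 1 CPM in every library. Among other receptors and factors the highest were Irf8, a factor of macrophage identity, at 302 TPM ± 8.64, Stat6 (217 ± 5.72) and Il10rb (215 ± 4.01), a chain shared by receptors of interferon lambda and interleukin 10. For Il10rb, 14.9% of the exon bases lie under another gene, so its level is uncertain. Its lambda-specific partner Ifnlr1, named after its values were seen, had 11 counts in total. Among restraining genes, the phosphatases Ptpn6 (782 ± 20.8 TPM), Ptpn1 (147 ± 5.38) and Ptpn11 (75.3 ± 2.75) were highest. The feedback inhibitor Socs1, also named after its values were seen, was at 2.84 ± 0.462 TPM.

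The highest of the other sensors and adaptors were Unc93b1, which carries Toll-like receptors to endosomes, at 1249 TPM ± 33.8, the DNA-sensing adaptor Sting1 at 216 ± 6.86 and the RNA receptor Tlr7 at 196 ± 26.1. Of 40 other induced genes, 32 were detected in all libraries, with a list median of 14.0 TPM ± 0.189, against 18.0 ± 0.925 for the induced tier. The highest were Ifi27l2a (320 ± 16.0 TPM), Lgals3bp (301 ± 12.4) and Slfn2 (199 ± 5.63). The chemokine genes Cxcl10 (13.7 ± 0.935 TPM) and Cxcl9 (0.318 ± 0.181), are named after their values were seen. In this list, 13 of 30 genes with a promoter, or 43.3%, held the ISRE letters.

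No member passed the test of differences between libraries. In edgeR's deviance test against genes of like abundance, 0 of the 47 members tested had a Benjamini-Hochberg adjusted p under 0.05, where 143 of all 12879 genes, or 1.11%, did. Ifitm6 was too low to be tested. At an unadjusted p under 0.05 there were 2 members of 47, Jak2 and Mx1, against 6.79% of all genes, and DESeq2 marked 0 members as dispersion outliers, against 0.536% of all genes. With a common dispersion 1 member passed, Gbp7, where 4.13% of all genes did. The count stayed at 0 without TMM (1.1% of all genes), with every gene above 0 counts (0.695%) and without replicate 1 (0.359%), 2 (0.9%), 3 (0.396%) or 4 (0.78%). Jak2 had 50.8 CPM in replicate 1 and 36.3 to 41.2 CPM in the others (edgeR unadjusted p = 0.022, adjusted p = 0.50). Mx1 had 7.37, 10.03, 11.8 and 13.2 CPM by replicate number (edgeR unadjusted p = 0.040, adjusted p = 0.66). A missed threshold does not show that the libraries were alike.

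The highest library exceeded the lowest by less than 1.5-fold on CPM for 42 of 48 members. The share of all tested genes under this limit was not computed. The other 6 members were all induced genes: Gbp7 (2.86-fold), Ifitm6 (2.37), Mx2 (2.01), Ifi44 (1.91), Mx1 (1.80) and Ifit1 (1.52). All 6 had a mean of 10.6 CPM or less, while the signalling gene lowest on CPM, Irf7, had 30.2. Counting error alone is large for some of the 6. The coefficient of variation was 42.4% for Gbp7, where counting gives 14.8%, but 36.7% for Ifitm6, where counting gives 32.4%. For Mx2 it was 27.3% against 8.98%. At the other end, Samhd1 varied by 1.27% and Usp18 by 3.54%, less than the 1.46% and 5.70% that counting alone gives.

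**Figure D4:**
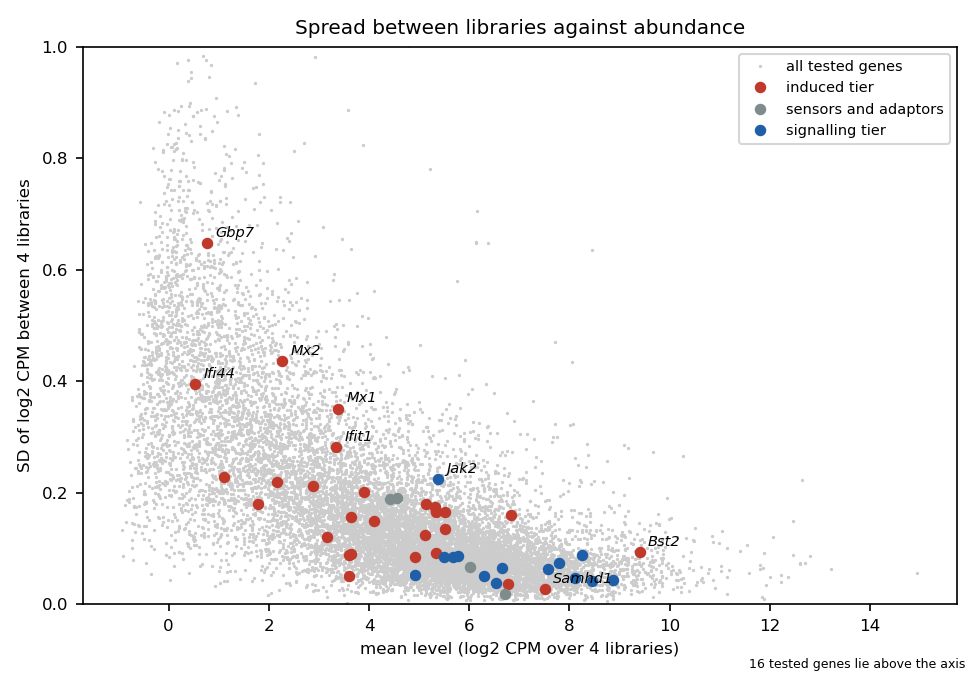
SD of log2 CPM between the 4 libraries against mean log2 CPM, for the 12879 tested genes (grey, of which 16 lie above the plotted range) and the 47 tested members (coloured by tier). The members lie within the grey cloud, and Gbp7, Mx2, Ifi44, Mx1 and Ifit1 are the uppermost of them.

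The spread was read within ranges of abundance. Between 10 and 100 CPM, the median SD of log2 CPM was 0.157 for the 17 induced genes and 0.0838 for the 7 signalling genes, and 0.105 for all 6406 tested genes. In that range 12 of 17 induced and 1 of 7 signalling genes were above the median of all genes. The tiers were not at like abundance in it. The induced genes had means of 10.2 to 45.7 CPM and the signalling genes 30.2 to 92.2 CPM. At 100 CPM or more the 4 induced and 7 signalling genes had median SDs of 0.0648 and 0.0638, against 0.0665 for all genes, and under 10 CPM the 8 induced genes had 0.224 against 0.291. These are descriptions without a test.

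The libraries did not rank the induced genes in 1 order. Of 29 tested induced genes 9, 5, 3 and 12 were highest in replicates 1 to 4, against 29.7%, 23.9%, 24.0% and 22.4% of all tested genes. The lowest library was replicate 1, 2, 3 or 4 for 8, 9, 7 and 5 of them, against 30.7%, 22.4%, 25.1% and 21.7% of all tested genes. The median deviation of the tier from the gene means was 0.019, -0.048, -0.015 and 0.077 on the log2 scale in replicates 1 to 4, and that of the signalling tier -0.0092, -0.026, 0.0076 and 0.014. Without TMM the induced tier had -0.0021 in replicate 1 and 0.0065 in replicate 3, so those directions turn with the scaling. All 4 IFIT genes were lowest in replicate 2 (22.4% of all tested genes were), with a median deviation of -0.24 there, while Bst2, Ifitm2 and Ifitm3 were highest in it (23.9% of all genes), with a median of 0.21. The 7 tested GTPase genes had median deviations of -0.18, -0.06, 0.11 and 0.23 in replicates 1 to 4, but did not move together. Of these, 4 were highest in replicate 4 and 3 lowest in replicate 1, while 2 were highest in replicate 1 and 2 lowest in replicate 3. Of the 5 RNA and nucleotide enzyme genes, 4 were lowest in replicate 3 (25.1% of all genes), with a median of -0.14 there. For 1 of these, Samhd1, this turns with the scaling. Without TMM it was lowest in replicate 2, at 180.6 CPM against 181.5 CPM in replicate 3. Genes of a family can share reads, no member passed the test, and no test of a family was run.

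Astrocyte marker genes differed between the same libraries: their median deviation was -0.48 in replicate 1 and 0.16, 0.30 and 0.01 in replicates 2, 3 and 4, and 3 of 7, Clu, Gfap and Slc1a3, passed the edgeR test at an adjusted p under 0.05. Of the 7 microglia and macrophage markers 1 passed, P2ry12, a receptor of resting microglia, at 316, 243, 215 and 326 TPM by replicate number (edgeR adjusted p = 0.0010). It was higher in replicates 1 and 4. The part of either marker list in the deviations of the interferon genes was not tested. In bulk samples fewer cells of a type and less RNA per cell cannot be told apart.

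**Figure D5:**
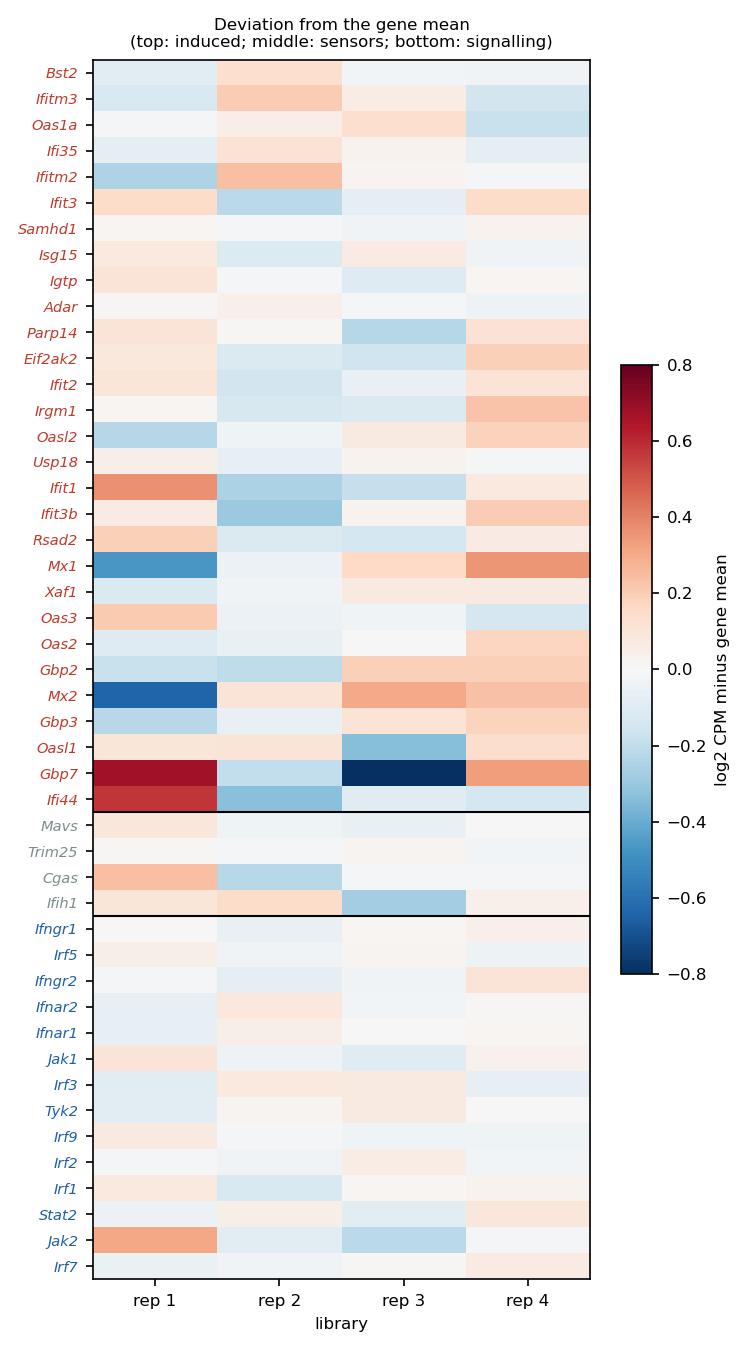
Deviation of log2 CPM from the mean of each gene (colour; red above, blue below) in each library, for the 47 tested members, with the induced tier at the top and the signalling tier at the bottom. Mx1 and Mx2 are blue in replicate 1, the IFIT genes blue in replicate 2, and most signalling genes pale in all libraries.

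Of the 66 other pathway genes tested, 0 passed in edgeR at an adjusted p under 0.05, against 1.11% of all genes, and 3 had an unadjusted p under 0.05, against 6.79% of all genes: Tlr7, Slfn8 and Trim30a, of which Slfn8 and Trim30a are named after their values were seen. Tlr7 had 268, 211, 212 and 259 CPM by replicate number, higher in replicates 1 and 4 (edgeR unadjusted p = 0.0050, adjusted p = 0.21). The deviations of Slfn8 were 0.15, -0.09, -0.33 and 0.26 and those of Trim30a 0.22, -0.19, -0.16 and 0.12, beside 0.22, -0.15, -0.35 and 0.28 for P2ry12 (log2 CPM from the gene mean, replicates 1 to 4). All were above the mean in replicates 1 and 4 and below it in replicates 2 and 3, and a relation between them was not tested. The share of all tested genes with this split was not computed. Replicates 1 and 4 were also the libraries with the most gene counts (27012285 and 28469813). Xist was likewise higher in them, at 332, 276, 253 and 341 CPM by replicate number. So was the Y-linked Ddx3y, at 41.5, 33.3, 30.03 and 40.04 CPM. The Y-linked Kdm5d did not have this split, at 21.2, 19.6, 21.1 and 20.3 CPM.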

How the data were processed

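Read counts per gene, in whole numbers and under gene symbols, are what the authors deposited for the 4 libraries. STAR 2.7.10a, SAMtools 1.16.1, HTSeq 0.11.2 and build mm39 (GRCm39) are named per the submitters' processing notes. No source used here gives the annotation release, strand setting or overlap mode; overlapping or antisense genes are therefore uncertain. The 5 summary lines, 11.8% ± 0.159 of reads (SD, n = 4), were left out; 0 columns belonged to no sample.

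TPM was computed here from the deposited counts and merged exon lengths of GENCODE M21, on another build, which cover 99.6% of counts. Merged exons can be longer than the longest transcript of a gene. TPM ratios between genes depend on the length used, and their SDs cover the libraries only. Shared stretches are 100-base runs found in transcripts of other genes. Exon bases under a gene of the opposite strand were 14.1% for Irf5, 16.8% for Ifi35 and 16.8% for Adar. For Gbp7 11.3%, and for Igtp 8.01%, lie under a gene of the same strand. The levels of these genes are therefore uncertain too. Library differences were tested over all genes in edgeR 4.0.16 (R 4.3.3) with 1 mean per gene, TMM scaling, filterByExpr and the trended dispersion. The deviance was compared with a chi-square distribution (3 degrees of freedom) and adjusted by the Benjamini-Hochberg method at 0.05. DESeq2 1.42.0 was an alternative. The test was tested on simulated data.

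Members and lists were chosen with earlier results of these data known. The text names every member, the 3 highest genes of each other pathway list, any of these or of the marker lists that passed the test, and the highest gene of each marker list except 1 list, where it is not reported here; other genes are named after their values were seen.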

Additional observations from a re-analysis of the deposited data

Results flagged for a closer look

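Of 51 sets of 4 library values examined (each member's CPM, the tier medians and their difference), 2 had 1 library far from the rest by the gap-to-range ratio, above Dixon's 95% critical value; chance marks about 1 in 20. Irf2 was highest in replicate 3, at 97.3 CPM against 90.2, 90.5 and 90.8 CPM in replicates 1, 2 and 4, a ratio of 0.908. Oasl1 was lowest in replicate 3, at 1.64 CPM against 2.18, 2.22 and 2.28 CPM in replicates 1, 2 and 4, a ratio of 0.847, on 38 counts in replicate 3.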

How the results depend on the processing

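The induced minus signalling difference, -1.51 on the log2(TPM + 1) scale, was below 0 in every library under all 14 alternatives. It was -2.70 on CPM without gene length, -1.16 with a pseudocount of 10, -2.03 with means over members, -1.27 with members that reached 1 CPM somewhere, -2.53 with the 4 inducible signalling genes counted as induced and -3.01 without them. With 2 alternatives chosen after seeing the data it was -1.64 (longest transcript as length) and -1.93 (members with at most 10% overlap or sharing). Leaving out 1 replicate gave -1.55 to -1.48. Other settings moved it by less than the SD between libraries. The cause of these shifts was not tested.

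The count of members that differed between libraries was 0 under 8 alternatives and 1 with a common dispersion, Gbp7 (edgeR adjusted p = 0.020), where 4.13% of all genes passed. Among other pathway genes the common dispersion gave 2, Gbp5 and Oas1c, named after their values were seen, and the other 5 settings 0. Leaving out 1 replicate gave 0 to 0 for both. The induced tier's deviations in replicates 1 and 3 were -0.0021 and 0.0065 without TMM, against 0.019 and -0.015 with it. The signalling tier's deviations in replicates 1 and 3 were -0.030 and 0.029 without TMM, and 0.014 and -0.016 with means over members. With the bases before the start alone, 3.46% of all promoters and 56.0% of induced ones held the ISRE letters. All 192 values of members with 1 replicate left out stayed within 1 SD. With 4 libraries a mean cannot move further than that, so this says nothing about the data. No paired analysis was possible because there is 1 group. Counts of 21 to 70 per library limit Gbp7, and 6 to 15 limit Ifitm6.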

Other observations

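Outside the member list, 373 tested genes held the ISRE letters in a promoter and 9456 tested genes with a promoter did not. Of those with the letters 2 passed the edgeR test of library differences at an adjusted p under 0.05, against 92 of those without, and their median deviations in replicates 1 to 4 were 0.0029, -0.020, -0.0061 and 0.016 on the log2 scale, against 0.0010, -0.00024, 0.0016 and 0.0038. The nuclease gene Trex1, which degrades cytosolic DNA upstream of Cgas and was named after its values were seen, had 0 counts in all 4 libraries; 100% of its exon bases lie under another gene, and the part of the counting in this was not tested.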
